A study of Caenorhabditis elegans with 2 samples.

Results

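Distal intergenic sites of the C. elegans FLYWCH zinc finger protein FLH-1 were the 767 nuclear entries, among the 4000 strongest in a pooled chromatin immunoprecipitation (ChIP-seq) list, that lay away from genes, promoters and small RNA genes. An entry is a candidate peak of the authors' list, and its summit is the base of highest enrichment. The summit of each had to lie outside every protein-coding gene and outside the promoter of every protein-coding gene, taken as 1000 bp upstream to 200 bp downstream of the 5′ end. It also had to lie more than 100 bp from every tRNA, snoRNA, snRNA and microRNA gene. The pooled list held 30000 entries, and 3993 of the 4000 strongest were nuclear. The other nuclear entries among them were 1119 promoter, 1071 intron and 678 exon sites away from small RNA genes, and 358 sites at small RNA genes. Members were selected on the pooled signal value, a score of the authors' peak caller, so their strength is a description. It ran from 47.0 to 329, with a median of 54.4.

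Embryos of the strain OP702 were used, which carries the unc-119 mutation tm4063 and the transgene wgIs702. The transgene holds flh-1::TY1::EGFP::3xFLAG and a working unc-119(+), so the protein mapped is a C-terminal fusion made from the transgene. The embryos were obtained by egg bleaching, were of mixed sex and mixed stage (age given as 2 hours), and gave chromatin for precipitation with an antibody to GFP. There were 2 biological replicates of this 1 group, with no second genotype, stage or treatment. Whole embryos were used, so a site bound in few cells and a site bound weakly in many cannot be told apart. A strain without the tag was not analysed here, and sites that would appear without the tagged protein cannot be told apart from FLH-1 sites. The lists hold no read counts, so depth is unknown and no interval that needs it is given.

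FLYWCH zinc finger proteins bind DNA, and FLH-1 is known together with its relatives for keeping microRNA genes silent in the C. elegans embryo. Genes in this compact genome are mostly controlled from sequence just upstream of them, and distal enhancers are known in the longer gaps, often beside genes for transcription factors and development. RNA polymerase III, which makes tRNAs and other small RNAs, is recruited at tRNA genes through internal A box and B box elements, which the factor TFIIIC binds. TFIIIC is also known to sit at places with box elements and no tRNA gene.

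Among the strong distal sites, 4 are shown first because they lay at a box-like sequence or at a gene for a signal recognition particle RNA, although the rule had removed annotated tRNA, snoRNA, snRNA and microRNA genes. Each window is 151 bp centred on the summit, from the plus strand of the RefSeq WBcel235 (ce11) genome. Capitals mark GNNNAGTGG, which is part of the A box, or GNTCNANNC, which is part of the B box, on either strand. The reverse forms read CCACTNNNC and GNNTNGANC.
D2096.7, chrIV:8375495-8375645: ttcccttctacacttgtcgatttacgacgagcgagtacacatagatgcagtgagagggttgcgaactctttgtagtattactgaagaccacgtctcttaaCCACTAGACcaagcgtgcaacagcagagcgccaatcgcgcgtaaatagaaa
srpr-2.1, chrIII:5211391-5211541: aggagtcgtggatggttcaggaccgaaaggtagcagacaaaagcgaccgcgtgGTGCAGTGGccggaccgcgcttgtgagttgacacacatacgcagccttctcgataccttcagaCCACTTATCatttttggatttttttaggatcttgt
pat-4, chrIII:89306-89456: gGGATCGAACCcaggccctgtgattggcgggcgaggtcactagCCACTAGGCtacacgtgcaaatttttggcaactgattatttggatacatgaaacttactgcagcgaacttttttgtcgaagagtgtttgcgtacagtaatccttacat
idpp-9, chrX:3914391-3914541: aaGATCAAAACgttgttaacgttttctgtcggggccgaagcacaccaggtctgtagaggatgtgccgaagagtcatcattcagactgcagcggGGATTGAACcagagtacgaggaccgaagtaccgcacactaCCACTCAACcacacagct

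The pat-4 and idpp-9 windows each hold both words in the order and spacing of a tRNA gene on the minus strand, with no tRNA gene annotated there. The D2096.7 window holds the A box word alone. The srpr-2.1 window lies largely in a gene for signal recognition particle RNA, which the rule did not remove because the annotation files it as another non-coding RNA.

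A second set, of 101 bp windows centred on the summit, is shown for base composition and repeats. Here capitals mark only the words GAGAGA, then GCGCGC, and also GGGCGG, on either strand. The sup-26, hbl-1, somi-1, nhr-88 and Y54G2A.73 sites stood among the stronger members with a high share of G and C, and the C24H10.4 and Y49G5A.1 sites are tandem repeats.
sup-26, chrIII:4282324-4282424: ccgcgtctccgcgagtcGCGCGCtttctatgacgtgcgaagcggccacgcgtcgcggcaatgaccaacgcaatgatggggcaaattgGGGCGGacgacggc
hbl-1, chrX:5818321-5818421: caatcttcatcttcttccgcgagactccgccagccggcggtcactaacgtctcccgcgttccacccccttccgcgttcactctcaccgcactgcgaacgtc
somi-1, chrV:13393507-13393607: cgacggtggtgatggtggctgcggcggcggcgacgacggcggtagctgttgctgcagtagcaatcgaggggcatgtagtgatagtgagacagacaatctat
nhr-88, chrII:2974105-2974205: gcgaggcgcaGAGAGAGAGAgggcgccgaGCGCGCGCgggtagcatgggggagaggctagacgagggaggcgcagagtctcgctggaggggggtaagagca
Y54G2A.73, chrIV:2998772-2998872: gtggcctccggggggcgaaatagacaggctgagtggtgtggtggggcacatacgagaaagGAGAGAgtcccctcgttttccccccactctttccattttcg
C24H10.4, chrX:5056369-5056469: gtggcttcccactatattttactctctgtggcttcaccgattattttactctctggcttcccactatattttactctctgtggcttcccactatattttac
Y49G5A.1, chrV:5284572-5284672: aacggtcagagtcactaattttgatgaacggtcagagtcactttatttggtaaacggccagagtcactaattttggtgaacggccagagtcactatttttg

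GC content of these windows was 66.3% at sup-26, 62.4% at hbl-1, 59.4% at somi-1, 70.3% at nhr-88 and 58.4% at Y54G2A.73. It was 40.6% at C24H10.4 and 41.6% at Y49G5A.1, where a short unit recurs along the whole window. The 51 bp at the Y49G5A.1 summit occur in 6 exact copies in the genome.

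The strongest members were led by the site beside alh-3, a gene of the aldehyde dehydrogenase family, which ranked at 18 among pooled entries and had a signal value of 329. Its summit lay 360 bp downstream of alh-3 and 118 bp from the microRNA gene mir-51, just outside the 100 bp limit, and 11 bp from the non-coding RNA gene F36H1.17. It ranked at 16 in replicate 1 with a signal value of 227 and at 28 in replicate 2 with 99.6. The next member, the site 6309 bp upstream of F13D11.3, ranked at 114 with a pooled signal value of 166. Signal values differ in scale between the lists, so replicates are compared by rank.

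Other members among the 20 strongest lay by genes of varied function. The D2096.7 site, 152 bp downstream of that gene in a gap of 350 bp between convergent genes, ranked at 109 in replicate 1 with a signal value of 113 and at 115 in replicate 2 with 56.9. The site 4797 bp upstream of cmd-1, which encodes calmodulin, ranked at 238 with 78.0 and at 123 with 55.6, and its summit lay inside the long non-coding RNA gene linc-128. The Y54G2A.73 site ranked at 177 with 87.6 and at 154 with 48.7. These sites stood in the upper part of both lists.

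The site 2150 bp upstream of sup-26, which encodes an RNA-binding protein, ranked at 148 in replicate 1 with a signal value of 94.2 and at 571 in replicate 2 with 30.2. The site 2162 bp upstream of somi-1, a zinc finger gene named for an effect on microRNA overexpression, ranked at 259 with 74.5 and at 365 with 34.6. The nas-30 site, 5010 bp upstream of that astacin protease gene, ranked at 120 with 105 and at 152 with 49.6. All of these ranked lower in replicate 2 than in replicate 1, most of all the sup-26 site.

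The remaining genes nearest to the 20 strongest were F52G3.8, gpb-1 for a G protein beta subunit, ntl-9 for a subunit of the CCR4-NOT deadenylase, hbl-1, rga-9, C24H10.4, Y55B1BR.8, dct-1 for a mitochondrial receptor of mitophagy, the chemoreceptor gene srx-113, T04C4.3, ZC155.4 and F13D11.3 with a second member. Their pooled signal values ran from 98.4 at T04C4.3 to 124 at ZC155.4. The ZC155.4 site is the one shown above as srpr-2.1, named here by its nearest protein-coding gene. The ntl-9 site lay in a gap of 4806 bp whose other bordering gene is flh-2, a relative of flh-1, which was singled out after its values were seen. The strongest members on chromosomes I to V and X were, in that order, those of nas-30, gpb-1, ZC155.4, alh-3, cmd-1 and F13D11.3.

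How far the replicates shared these sites was asked next. An entry with its summit within 100 bp was present in replicate 1 for 705 members (91.9%), in replicate 2 for 558 (72.8%), in both for 508 (66.2%) and in neither for 12. The background is the 3993 nuclear entries among the 4000, of which 64.8% had an entry in both, so the members' share lay near it. Without the 358 sites at small RNA genes, of which 87.4% had one in both, the background was 62.6% of 3635. With summits within 50 bp, 41.3% of members had an entry in both, and within 250 bp 86.4%. For the distal entries among the 4000 strongest of a single replicate, 40.6% in replicate 1 and 41.2% in replicate 2 had an entry in the other. The share over all nuclear entries was not counted within 50 bp, within 250 bp or for single replicates. Whether distal sites differ from other entries at these settings cannot be told. Among the pooled 4000, an entry in both replicates within 100 bp was found for 64.3% of promoter and 60.4% of intron sites. That is the count that gave 66.2% for the members. Of the 5211 distal entries below the rank limit, 16.6% had one in both, and their signal values were lower by the rule, at most 47.0.

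Support was also described along the ranks. The ranks come from the pooled signal, which chose the members and holds the reads of both replicates, so strong entries are bound to be found more often in the replicates and nothing is read from the order. When the members were split by rank into 4 groups of nearly equal size, 82.3%, 67.2%, 63.5% and 51.8% had an entry in both replicates, from the strongest group to the weakest. A stricter count, an entry among the 4000 strongest of both replicates, held for 120 members (15.6%) against a background of 19.7%, with 19.8% of promoter and 14.3% of intron sites. Without the sites at small RNA genes, of which 65.4% met this count, the background was 15.2%, near the members' share. Of those 120 members, 97 were in the strongest rank group, 19 in the next, and 2 in each of the last groups. Few members below the top group met this count. Nothing is read from that either, since the pooled rank holds the reads of both replicates.

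The optimal set, the 371 peaks left by the authors' procedure for the irreproducible discovery rate, held 31 members (4.04%), and all of them were in the strongest rank group. The background was 9.12%, and the set took 103 promoter sites (9.20%) and 29 intron sites (2.71%) from the same 4000. The background includes the 358 sites at small RNA genes, which the rule leaves out of the members and of which 196 (54.7%) were in the optimal set. Without them it was 168 of 3635 (4.62%), near the members' share. The lowest pooled signal value of the 31 was 91.0 and the highest among the other 736 members was 89.3, so pooled signal, which chose the members, also separated the optimal ones. Within 100 bp, 27 of the 31 (87.1%) had an entry in both replicates, and within 250 bp all 31 did. The 2 without a close entry in replicate 1 were the stronger F13D11.3 site and the srpr-2.1 site, and the 2 without one in replicate 2 were those of tcl-2 and hmg-1.1, a gene for an HMG box protein. The share within 100 bp was higher for other optimal sites, at 99 of 103 promoter sites (96.1%) and 28 of 29 intron sites (96.6%). For these the 250 bp count was not made.

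**Figure D1:**
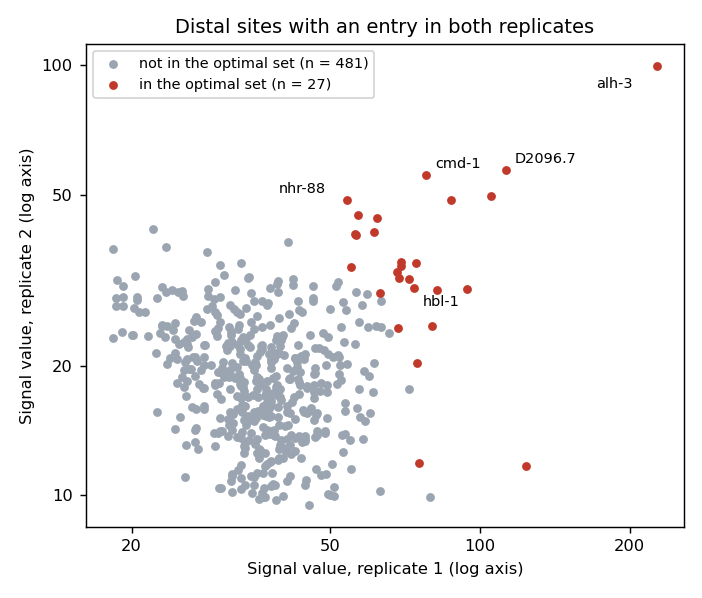
Signal value in replicate 1 (x axis, log scale) against replicate 2 (y axis, log scale) for the 508 members with an entry in both, where each point is 1 site and red points are the 27 in the optimal set. The red points lie to the upper right apart from 2 with a low value in replicate 2, and the 481 grey points slope down.

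Across the 508 matched members, log2 signal values of the replicates had a Pearson coefficient of 0.04 and a Spearman coefficient of −0.10. Without the 27 optimal ones the coefficients were −0.27 and −0.25 over 481 members. The members had been selected on the pooled signal, which holds both replicates, and all points share the same 2 libraries. The coefficients are a description of the selected sites.

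At the rank limit, the last members inside were those nearest to D1014.13, C36E8.6 and nhr-6, with pooled signal values of 47.06, 47.04 and 47.04. The first distal entries outside were those of T25D1.1, Y50D4A.6 and F52D2.7, with 47.02, 46.98 and 46.97. At nhr-6 the replicate ranks were 5471 and 13369, and at T25D1.1 they were 4997 and 17447. The limit therefore cuts through sites of like strength. At the other limit, 11 members lay within 200 bp of a small RNA gene and the closest lay 112 bp away, whereas 70 entries at 50 to 100 bp were kept out by the rule.

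The sequence under the summits was GC-rich for intergenic DNA. The 101 bp at the summit had a median GC content of 45.5% (quartiles 39.6% and 51.5%), against 39.6% at the 5211 weaker distal entries and 34.2% over the 24975909 bases of the genome that meet the location rule. The 31 optimal members had a median of 54.5% and the other 736 members 44.6%. Promoter sites among the 4000 had 45.5%, intron sites 43.6% and all nuclear entries among the 4000 45.5%, so the members did not stand apart from entries of like rank.

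**Figure D2:**
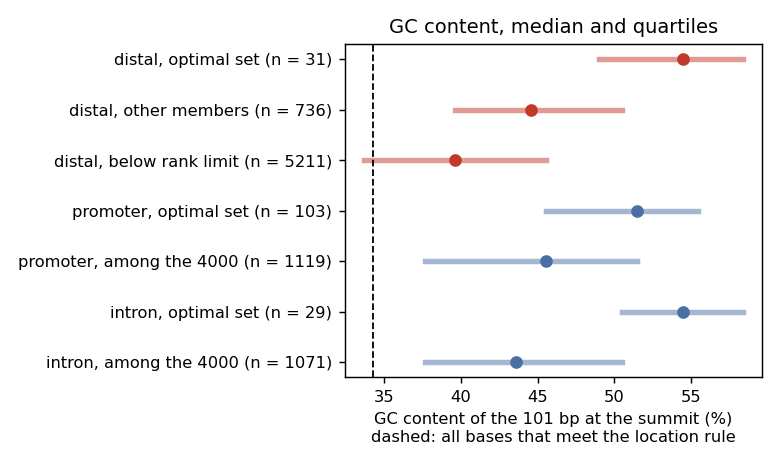
GC content of the 101 bp at the summit (x axis, %) for distal sites (red) and promoter and intron sites (blue), with the median as a point and the quartiles as a bar, and the dashed line at 34.2% for all bases that meet the location rule. In each class the optimal sites have the higher median, 54.5% for distal sites.

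GC content went down with rank, from a median of 48.5% in the strongest rank group through 45.5% to 43.6% in both weaker groups. Pooled log2 signal and GC content had a Pearson coefficient of 0.27 and a Spearman coefficient of 0.24 over the 767 members, which share their libraries. The CG dinucleotide occurred 4.67 times per window on average in the members and 7.55 times in the optimal ones, close to the 7.70 of optimal promoter sites. Sequencing yield can depend on base composition, and its part in the ranks was not tested.

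Of the short words counted, GAGAGA differed most in share between the members and the weaker entries of the same location. It was found on either strand in 154 of 767 windows (20.1%), against 522 of 5211 weaker distal windows (10.02%), 16.4% of promoter, 12.7% of intron and 8.26% of exon windows among the 4000, 14.5% of all nuclear windows among the 4000 and 8.72% of all nuclear pooled windows. From the strongest to the weakest rank group of the members it was in 27.6%, 18.8%, 18.2% and 15.7%. Among the distal entries of the 4000 strongest of each replicate alone, it was in 18.3% of 763 in replicate 1 and 15.8% of 760 in replicate 2. These lists come from the same libraries whose pooled signal chose the members, so they are no separate support. The weaker distal entries of each replicate were not counted.

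Windows with GAGAGA had a median GC content of 48.5%, against 44.6% for the 613 without it. Repeat-masked summits made up 18.2% of the first and 26.6% of the second, and 2 of the 154 were tandem repeats. An entry in both replicates was found for 68.8% of the first and 65.6% of the second, and 7 of the 31 optimal members held the word, among them Y54G2A.73, nas-30, ntl-9, rga-9 and nhr-88. In the optimal set it was also in 13.6% of promoter and 24.1% of intron windows. The median signal values, 55.5 with the word and 54.03 without, were close.

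The word GCGCGC was rare among the members as a whole and more frequent among the strong ones. It was in 24 of 767 member windows (3.13%), 1.59% of weaker distal windows, 5.72% of promoter and 3.73% of intron windows among the 4000, 3.63% of all nuclear windows among the 4000 and 1.59% of all nuclear pooled windows. In the optimal set it was in 5 of 31 distal windows (16.1%), those of sup-26, T04C4.3, nhr-88, Y39E4B.6 and C02F12.8, in 20.4% of promoter windows and in 17.2% of intron windows. The optimal distal windows were also richer in G and C than the other members.

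The other words had shares as follows. TTGCAA was in 4.17% of member windows, 4.86% of weaker distal windows and 4.53% of all windows among the 4000. In the optimal set it was in 1 of 31 distal windows, at ztf-27, and in 23.3% of promoter windows. GGGCGG was in 4.43% of members, 3.28% of weaker entries and 5.56% of the 4000. TGCGTC was in 5.74%, 3.42% and 5.58% of the same groups in that order, and TGATAA in 5.61%, 7.14% and 5.23%. The telomere repeat word TTAGGC was in 4.82%, 3.99% and 3.78%, and in no optimal distal window. The upstream piRNA word CTGTTTCA was in 0.522% of members and 0.633% of weaker entries.

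**Figure D3:**
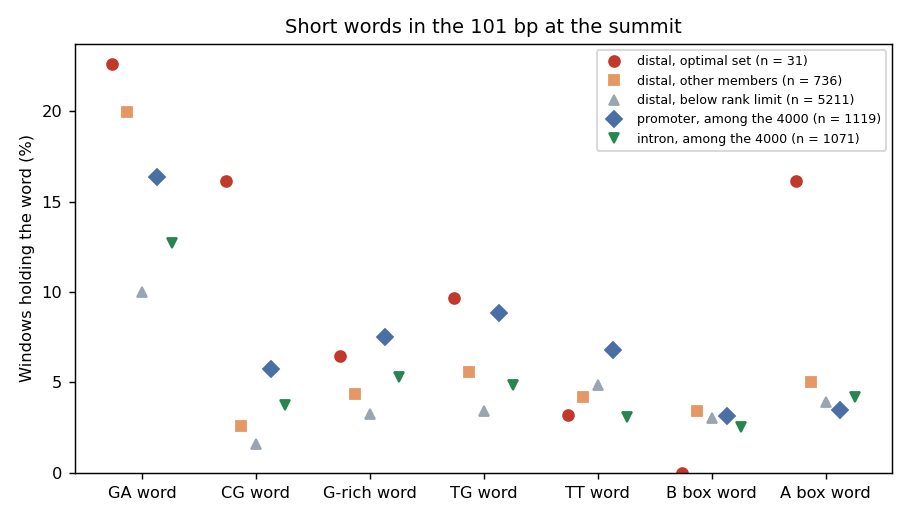
Share of 101 bp windows holding a word (y axis, %) in 5 groups of sites, where GA word is GAGAGA, CG word GCGCGC, G-rich word GGGCGG, TG word TGCGTC, TT word TTGCAA, B box word GTTCGA and A box word GNNNAGTGG, each on either strand. The GA word is in 22.6% of the 31 optimal distal windows and 19.97% of the other members, above the further groups drawn, and the CG and A box words are each in 16.1% of the optimal distal windows. Optimal promoter and intron sites are not drawn apart. The GA word is in 13.6% of optimal promoter and 24.1% of optimal intron windows, the CG word in 20.4% and 17.2%, and the A box word in 5.83% and 13.8%.

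Elements of RNA polymerase III genes were looked for because sites at small RNA genes had been taken out by annotation alone. The word GTTCGA, part of the B box, was in 25 of 767 members (3.26%), 3.01% of weaker distal entries and 5.91% of all windows among the 4000, against 34.1% of the 358 sites at small RNA genes. No optimal member held it in the 101 bp window, whereas the longer pat-4 window printed above holds its reverse form near one edge. The looser words GNNNAGTGG and GNTCNANNC, added after the data had been seen, were in 5.48% and 8.87% of members, 3.93% and 9.21% of weaker distal entries, and 28.5% and 48.9% of sites at small RNA genes. Of all nuclear windows among the 4000, they were in 6.54% and 13.97%.

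The pair of both words in tRNA order, 20 to 70 bp apart within 201 bp, was in 9 members (1.17%), 0.672% of weaker distal entries, 30.4% of sites at small RNA genes and 3.36% of all windows among the 4000. The pair was found in 2 of the 31 optimal members. The first lay 72 bp downstream of pat-4, which encodes an integrin-linked kinase, and ranked at 548 in replicate 1 with a signal value of 56.2 and at 244 in replicate 2 with 40.5. The second lay 299 bp downstream of idpp-9 and ranked at 310 with 68.8 and at 470 with 31.9. The other 7 lay at ssu-1, cki-1, gsp-1, W05B5.1, W04A4.6, Y53G8B.2 and par-6, with pooled ranks from 1069 to 3256.

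RefSeq annotates 209 tRNA pseudogenes, and 2 members had one within 200 bp. The Y53G8B.2 site lay in Y53G8B.t5, and the nhr-277 site lay 128 bp from Y94H6A.t1. Their pooled signal values were 49.5 and 49.7, low in the range of members. The D2096.7, Y54G2A.73, ZC155.4 (srpr-2.1) and pat-4 sites and that of WBGene00020828 were the 5 optimal members with GNNNAGTGG in the 101 bp window.

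Genes for other known RNA polymerase III transcripts, a list also added after the data had been seen, include RNAs of the signal recognition particle, which docks ribosomes at the endoplasmic reticulum. At srpr-2.1 the member's pooled summit ranked at 203 with a signal value of 124. The gene's own nearest entries ranked at 183 in replicate 1 with 86.1 and at 229 in replicate 2 with 41.4. The member at srpr-3 ranked at 1619 with 57.6, and at 9543 with 27.9 and 2142 with 22.3 in the replicates. The srpr-2.1 site was thus in the upper part of both lists, and the srpr-3 site ranked far lower in each.

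Further copies lay in other location classes. The srpr-2.2 site ranked at 102 with a pooled signal value of 174 and the srpr-1.2 site at 237 with 113, both in introns, and the srpr-1.1 site at 851 with 67.2, in an exon, without an entry in replicate 2. The RNase P RNA gene rpr-1 had an entry at rank 45 with 238, and the RNase MRP RNA gene mrpr-1 at rank 62 with 216. No entry was found at the Y RNA gene yrn-1. How alike the genes for the signal recognition particle RNA are was not measured. The 51 bp at the summit of the srpr-2.1 member occur in 1 exact copy in the genome. How the authors placed reads that map to more than 1 place is not given in the sources used here.

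Annotated non-coding genes of other kinds lay close to many members. A gene of this kind or a pseudogene was within 100 bp of 185 members (24.1%), against 19.0% of weaker distal entries and 19.9% of the bases that meet the location rule. The annotation calls 125 of them ncRNA without naming a type, 43 pseudogenes, 12 long intergenic RNAs and 5 piRNAs. The ncRNA class was near 16.3% of members and 8.25% of weaker entries, whereas pseudogenes were near 5.61% and 9.13%. Of the 31 optimal members, 15 (48.4%) had such a gene within 100 bp, of which 12 were ncRNA, 1 was a long intergenic RNA and 2 were pseudogenes. Optimal intron sites were close to this, with 12 of 29 (41.4%), and optimal promoter sites had 21 of 103 (20.4%). Among the 4000, the share was 16.3% of all nuclear entries, 12.5% of promoter and 11.7% of intron sites.

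By direction of the neighbouring genes, the members were spread much as the bases that meet the location rule. Divergent genes, which both start at the gap, flanked 251 members (32.7%), genes in the same direction 411 (53.6%) and convergent genes 103 (13.4%). The weaker distal entries had 31.0%, 55.2% and 13.6%, and the bases that meet the rule 29.8%, 53.4% and 16.5%. The median gap was 10733 bp for divergent, 7123 bp for same-direction and 3292 bp for convergent neighbours. Of the 31 optimal members, 12, 12 and 7 lay in these gaps.

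**Figure D4:**
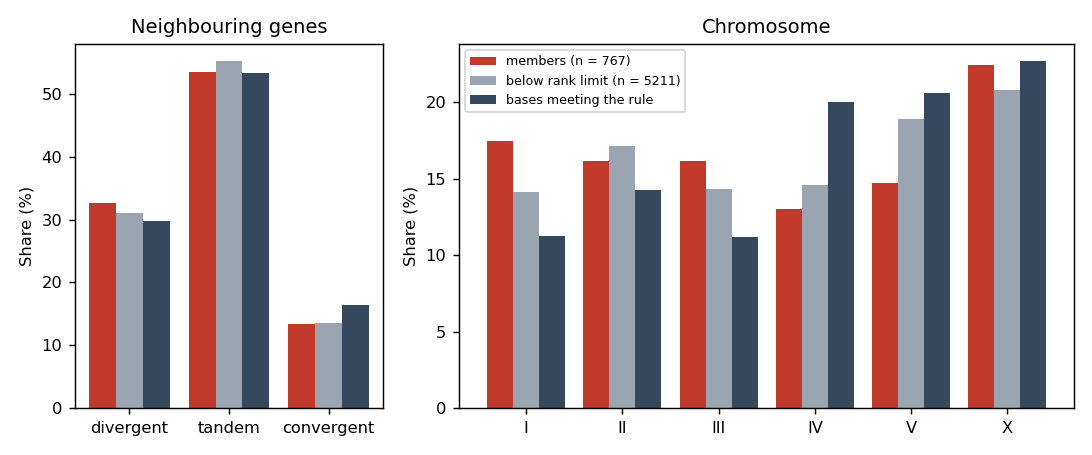
Share (y axis, %) of the 767 members, of the 5211 distal entries below the rank limit and of the bases that meet the location rule, by direction of the neighbouring genes (left) and by chromosome (right). The bars differ little by gene direction, and on chromosomes I and III the members exceed their share of bases while on IV and V they stay below it.

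The nearest protein-coding gene lay at a median of 1840 bp from the summit, against 1793 bp for weaker entries. The members were upstream of it in 417 cases (54.4%) and downstream in 350, and the weaker entries were upstream in 52.6%. By chromosome, I held 17.5% of members and 11.2% of the bases that meet the rule, III 16.2% and 11.2%, IV 13.0% and 20.01%, V 14.7% and 20.6%, and X 22.4% and 22.7%. The weaker distal entries lay between these values on I, III, IV and V, with 14.1%, 14.4%, 14.6% and 18.9%. The farthest members from any protein-coding gene were those of Y73B6A.3 at 33444 bp, Y73B3A.1 at 33339 and 30139 bp, ZK218.11 at 19756 bp and zfh-2 at 12087 bp, with pooled signal values from 48.2 to 61.7.

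The members lay nearest to 662 different genes, and 8 genes had 4 or more. Y39E4B.6 and egl-27 had 5 members each, and hbl-1, rho-1, toca-1, tol-1, Y50D4C.12 and ztf-6 had 4 each. Joined within 500 bp, the members made 744 sites, of which 23 held 2 members. Nearly all sites were therefore single entries.

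Of the 15 gene lists, that of zinc finger genes picked by symbol had the largest gap between its share of members and its share of weaker entries. The list is not complete and leaves out somi-1, for example. Of its 39 genes 8 were nearest to a member, with 15 members in all (1.96% of members, 0.595% of weaker entries, 0.195% of genes). Besides hbl-1, the strongest were at ztf-27, at rank 353 with a pooled signal value of 92.7, at ztf-6, at rank 421 with 85.6, and at ztf-29, at rank 546 with 77.6. At ztf-6 the replicate ranks were 492 and 821, and at ztf-29 they were 432 and 9032. The 15 members were nearest to few genes, since hbl-1 and ztf-6 had 4 each.

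The GATA list, factors of gut and skin development, had 6 members (0.782%, against 0.288% of weaker entries) at 2 of 12 genes. Of these, 5 lay upstream of egl-27, which encodes a chromatin factor related to MTA1, and had pooled ranks from 588 to 3302. The strongest ranked at 417 in replicate 1 and 6089 in replicate 2. The sixth lay at egl-18. The Wnt list, the pathway that sets cell polarity and fate along the embryo, had 5 members (0.652% against 0.365%) at 4 of 16 genes. They were wrm-1 for a beta-catenin, pop-1 for the TCF factor with 2 members, cwn-2 for a ligand and cam-1 for a ROR receptor, with pooled signal values from 49.1 to 62.2.

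Nuclear hormone receptor genes had 16 members (2.09% against 2.03%) at 14 of 274 genes, led by nhr-88 at rank 315, nhr-41 at 388, nhr-175 at 475 and nhr-276 at 909. At nhr-88 the replicate ranks were 628 and 155. Homeobox genes had 7 members (0.913% against 1.23%), led by ceh-58, ceh-43, ttx-1 and ceh-30. Forkhead genes had 2 (0.261% against 0.269%), at lin-31 and daf-16. T-box genes had 1 (0.130% against 0.345%) at tbx-34, and basic helix-loop-helix genes 1 (0.130% against 0.499%) at hlh-14. No member was nearest to a gene of the FLYWCH family by this measure.

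Lists of large families that are not regulators stood as follows. Chemoreceptors had 18 members (2.35% against 2.65% of weaker entries) at srx-113, srg-36, srw-60, srx-108 and other genes, collagens 8 (1.04% against 0.461%) at col-83, col-88, col-105, col-98 and others, and F-box genes 8 (1.04% against 0.902%) at fbxa-55, fbxb-58, fbxa-5, fbxa-85 and others. C-type lectins had 5 (0.652% against 0.633%) at clec-196, clec-2, clec-114 and clec-118 among others. Ribosomal protein genes had 2 (0.261% against 0.288%), at rps-27 and rps-6, and histone genes 1 (0.130% against 0.0960%) at his-24.

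The gap between F13D11.3 and hbl-1 held several of the strong members. hbl-1 encodes a Hunchback-like zinc finger factor that acts in developmental timing and is a known target of let-7 family microRNAs. The gap is 16219 bp long and held 5 members, of which 3 were in the optimal set. Measured from the hbl-1 5′ end on ce11 (chrX:5822142-5827755, plus strand), their summits lay 9911, 9706, 5610, 3771 and 2810 bp upstream. Their pooled signal values in that order were 166, 103, 55.2, 105 and 63.9.

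At 3771 bp upstream, the member ranked at 265 in replicate 1 with a signal value of 73.7 and at 561 in replicate 2 with 30.4. The pair 9911 and 9706 bp upstream was 1 entry in replicate 1, at rank 93 with 124, and lay between the pooled summits. In replicate 2 it was 2 entries, at rank 120 with 56.1 and at rank 19731 with 11.7. The summits of the 3 optimal members lay in annotated ncRNA genes, F13D11.7, F13D11.13 and F13D11.21.

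The other sites of the gap were weaker. The member 5610 bp upstream had entries at rank 1064 in replicate 1 and 12849 in replicate 2. That at 2810 bp had rank 951 in replicate 1 and no entry within 100 bp in replicate 2. The promoter of hbl-1 held a pooled entry 968 bp upstream at rank 921 with 65.6, and another member lay 6093 bp from the 5′ end, past the 3′ end of the gene, at rank 1502 with 58.5. The strong sites of the gap in both replicates were thus that pair, through 1 of its summits in each list, and the site 3771 bp upstream.

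**Figure D5:**
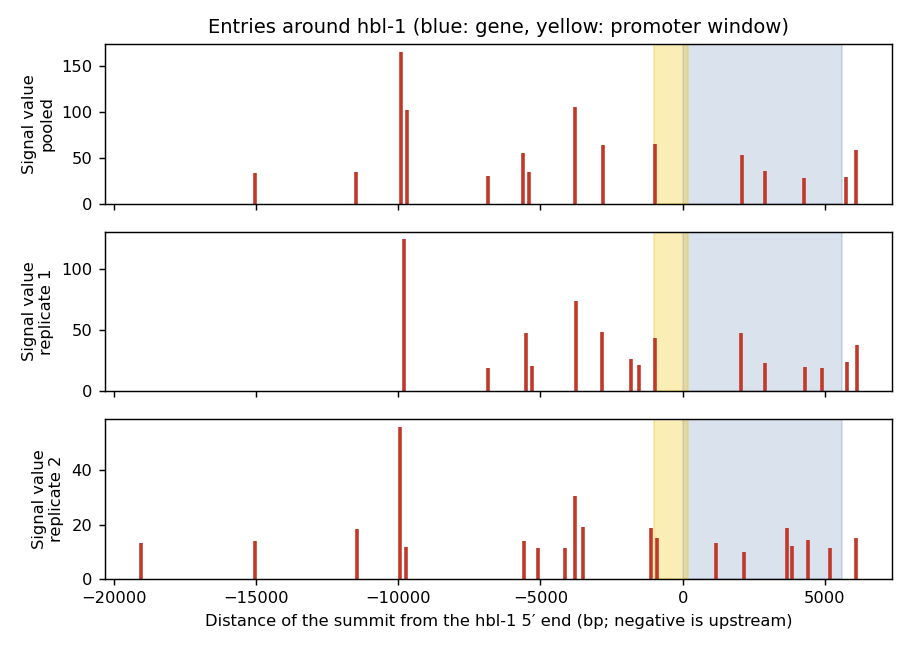
Signal value (y axis, own scale per panel) of each entry around hbl-1 in the pooled list and in replicates 1 and 2, by distance of the summit from the hbl-1 5′ end (x axis, bp), with the gene in blue and the promoter window in yellow. The tallest entries in each panel lie at about 9911 bp and 3771 bp upstream, outside the promoter.

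Repeats were counted as tandem repeats, as repeat-masked sequence and as exact copies. Tandem repeats, taken as windows in which at least 70% of bases equal the base a fixed step of up to 40 bp away, were 21 members (2.74%). Weaker distal entries had 1.98%, and among the 4000 it was 1.07% of promoter, 2.80% of intron and 1.68% of all nuclear entries. Of the 21 members, C24H10.4 at rank 279 and the srx-113 site at rank 303 were in the optimal set. The others ranked from 419 at Y49G5A.1 to 3957 at clc-1. The srx-113 site ranked at 220 in replicate 1 with a signal value of 80.3 and at 1313 in replicate 2 with 24.7. Summits in repeat-masked sequence numbered 191 (24.9%), against 31.1% of weaker distal entries and 40.4% of the bases that meet the rule. Among the 4000, they made up 22.7% of promoter, 31.0% of intron and 22.0% of all nuclear entries.

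The 51 bp at the summit occurred in more than 1 exact copy for 13 members (1.69%). Of weaker distal entries it was 2.21%, and of all nuclear entries among the 4000 it was 2.08%. Promoter sites among these had 0.983%, intron sites 1.03% and sites at small RNA genes 13.4%. Of the 13 members, the kin-20 site had 1379 copies and the nhr-175 site 871, both tandem arrays, and the other 11 had from 2 to 9. The nhr-175 site ranked at 475 with a pooled signal value of 82.3 and at 252 in replicate 2, without an entry within 100 bp in replicate 1. A read that lies wholly within such copies cannot be placed at 1 of them. Only the central 51 bp were compared, so reads that reach past them may still be placed. The part of this in the signal was not tested.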

How the data were processed

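Chromatin immunoprecipitation of FLH-1::GFP from C. elegans embryos was measured in 2 biological replicates of 1 group. The authors deposited relaxed lists of 30000 entries per replicate and for the pooled reads, and an optimal set of 371 peaks, on the ce11 assembly per the labels. The signal value is a score given to each entry by the authors' peak caller and was used to rank entries within a list. The deposited −log10 q value was read but not used for ranking. Which aligner, peak caller and threshold were applied is not given in the sources used here. Because the lists give no read counts, depth and counting precision are unknown.

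Summits were placed on Ensembl WBcel235 genes, with symbols from RefSeq joined on the WormBase identifier (46881 of 46926 genes matched), and sequences came from the RefSeq WBcel235 genome. Classes were assigned in the order small RNA, promoter, exon, intron and distal. Base composition and words used 101 bp at the summit, and entries within 100 bp were taken as the same site. Shares were set beside those of all nuclear entries among the 4000, of promoter and intron sites and of distal entries ranked below 4000. With 1 group, no test between groups exists and none was run. Members, lists and words were chosen with earlier results of these data known. GNNNAGTGG, GNTCNANNC, their pair and the list of RNA polymerase III transcripts were added after seeing the data. Named genes were those nearest to the 20 strongest members, the strongest per chromosome, the members at the rank limit, the 5 farthest from a gene and up to 4 per list. Sites and genes named beyond this rule, such as other optimal members, holders of a word, repeats, the hbl-1 gap and genes with 4 or more members, were chosen after their values were seen. The location step was tested on simulated data. Alternatives were other rank limits, promoter sizes, distances and windows, each replicate alone, and leaving out the mir-51 site. Python 3.11.15, numpy 2.4.6, pandas 2.3.3 and scipy 1.17.1 were used.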

Additional observations from a re-analysis of the deposited data

How the results depend on the processing

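Of 79 alternative values for 10 results, 40 stayed within the spread (SD) between the lists of single replicates, or within 1.5 times for the number of sites, and 39 did not. This SD rests on 2 values, and for GC content it was 0, so any change there fell outside it. For an entry in both replicates, it came from another measure, the share with an entry in the other replicate. The split of 40 and 39 is therefore a description and does not measure robustness. There were 358 distal sites among the 2000 strongest entries, 1576 among the 8000 and 403 with promoters from 3000 bp. An entry in both replicates was found for 66.2% of members, 74.9% of distal sites among the 2000, 55.5% among the 8000, 67.0% with the larger promoters, 41.3% within 50 bp and 86.4% within 250 bp. The optimal share was 8.66% among the 2000, 1.97% among the 8000 and 3.92% without the mir-51 site, which was an alternative added after seeing the data. Median distance to a gene was 1855.5 bp among the 2000, 1852 bp among the 8000 and 3105 bp with the larger promoters. Median GC content was 47.5% among the 2000, 43.6% among the 8000, 45.1% with 25 bp to each side and 44.3% with 100 bp.

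With 25 bp and 100 bp to each side, GTTCGA was in 1.04% and 7.82% of members and GCGCGC in 1.69% and 6.13%. GCGCGC was in 4.75% among the 2000 and 2.60% among the 8000. A non-coding gene or pseudogene lay near 21.3% among the 8000 and 30.5% with the larger promoters, which also put 23.8% on X. Repeats or copies made up 28.0% among the 8000. With 1 replicate left out, the distal entries of the other's own 4000 strongest were counted. In these 2 lists, in the order lowest to highest, the share with an entry in the other replicate was 40.6% to 41.2%, the share within 100 bp of an optimal summit 3.68% to 3.80%, the median distance 1784.5 to 1797 bp, the median GC content 43.6% in both, GCGCGC 2.89% to 3.15%, a non-coding gene or pseudogene 22.4% to 24.5% and repeats or copies 24.9% to 27.8%. Such lists rank by their own signal, so these are other sites in part. No paired analysis was possible because there is 1 group. Depth is unknown, so what it limits cannot be stated. The causes of these shifts were not tested, apart from those the settings fix by construction, such as fewer or longer windows.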
